A study of Homo sapiens with 9 samples.

Results

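Polyamine metabolism is covered here by 10 genes, SAT1, ODC1, OAZ1, OAZ2, AZIN1, AMD1, SRM, SMS, SMOX and PAOX, which were chosen by gene name among the 62710 genes measured and cover polyamine synthesis, acetylation and antizyme control. RNA was sequenced from A375R, a human BRAF-mutant melanoma line with acquired resistance to the BRAF inhibitor PLX4032, which was kept in its medium at 2 µM. Cells received DMSO as the vehicle control (titled "WT", with no dose or time in the titles), 10 µM VHL-r for 2 h or 10 µM R4VPL3-1 for 2 h, with 3 biological repeats per treatment and 9 libraries in all. The headers of the value columns give 2 h for DMSO replicates 2 and 3 and no time for DMSO replicate 1. VHL-r is the VHL-recruiting moiety alone, and R4VPL3-1 is the full PROTAC-like molecule in which that moiety is linked to a binder of the ubiquitin ligase RNF4. All 3 groups come from the same line, and each library is a sample of it under 1 treatment.

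The polyamines putrescine, spermidine and spermine are small positively charged molecules that bind nucleic acids and are needed for cell growth. Ornithine decarboxylase makes putrescine from ornithine, and aminopropyl groups donated by decarboxylated S-adenosylmethionine extend it to spermidine and then spermine. The pathway runs back by acetylation and oxidation, and antizymes, whose synthesis rises with polyamines, send ornithine decarboxylase to the proteasome and limit uptake. SAT1, which acetylates spermidine and spermine, is also known as a stress- and p53-responsive gene linked to lipid peroxidation and ferroptosis.

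The promoters of the 4 genes called in the comparison of R4VPL3-1 with DMSO are shown because these genes moved in different directions. A RefSeq promoter (GRCh38.p14, 250 bases before to 50 after the start) was printed for SAT1 (chrX:23782923-23783222, plus strand), AMD1 (chr6:110874534-110874833, plus strand), SMS (chrX:21940459-21940758, plus strand) and OAZ2 (chr15:64703232-64703531, minus strand), each 5′ to 3′ on the strand of the gene. Capitals mark matches on either strand to 6 motifs: the E-box CACGTG, the cyclic AMP response element TGACGTCA, the antioxidant response element TGACNNNGC, the CCAAT box CCAAT, the GC box GGGCGG and the TATA box TATAAA.
SAT1: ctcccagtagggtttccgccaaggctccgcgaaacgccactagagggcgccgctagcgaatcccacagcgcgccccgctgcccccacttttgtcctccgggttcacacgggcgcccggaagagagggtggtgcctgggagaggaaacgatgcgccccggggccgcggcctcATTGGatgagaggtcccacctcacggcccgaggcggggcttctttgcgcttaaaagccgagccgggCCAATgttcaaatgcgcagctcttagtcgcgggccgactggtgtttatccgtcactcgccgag
AMD1: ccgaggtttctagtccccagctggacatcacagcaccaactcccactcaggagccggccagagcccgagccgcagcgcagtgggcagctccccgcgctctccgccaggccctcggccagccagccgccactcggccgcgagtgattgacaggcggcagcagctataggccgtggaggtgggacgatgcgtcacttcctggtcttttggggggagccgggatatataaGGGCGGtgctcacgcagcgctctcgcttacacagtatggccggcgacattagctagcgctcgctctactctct
SMS: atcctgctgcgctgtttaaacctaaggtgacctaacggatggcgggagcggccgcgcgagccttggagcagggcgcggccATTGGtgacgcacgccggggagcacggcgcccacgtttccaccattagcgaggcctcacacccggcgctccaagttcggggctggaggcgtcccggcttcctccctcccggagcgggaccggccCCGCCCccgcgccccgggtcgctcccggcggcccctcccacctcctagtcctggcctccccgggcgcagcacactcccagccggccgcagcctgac
OAZ2: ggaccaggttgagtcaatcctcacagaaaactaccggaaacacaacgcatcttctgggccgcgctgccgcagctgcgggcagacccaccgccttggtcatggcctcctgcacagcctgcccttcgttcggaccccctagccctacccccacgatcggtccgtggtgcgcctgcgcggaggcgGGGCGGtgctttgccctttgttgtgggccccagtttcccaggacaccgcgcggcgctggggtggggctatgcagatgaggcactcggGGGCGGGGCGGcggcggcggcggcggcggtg

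In the SAT1 promoter the capitals were 2 CCAAT boxes, 1 on each strand, and no GC box was found. The AMD1 promoter held 1 GC box, and the OAZ2 promoter held 3, of which 2 overlap in the printed run. The SMS promoter held 1 CCAAT box and 1 GC box on the minus strand. CCAAT boxes were found in 34.6% and GC boxes in 45.0% of all 35116 promoters of that length in the table, and the other motifs in 7.26% (E-box), 1.85% (cyclic AMP response element), 13.3% (antioxidant response element) and 11.5% (TATA box). None of these 4 windows held an E-box, a cyclic AMP response element, an antioxidant response element or a TATA box in these letters. A promoter was matched for 7 of the 10 genes, and none was looked up for AZIN1. The CACGTG E-box was found in that of SRM.

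The recovered reads were 26435568 to 32085626 per library. The labelled melanoma line carried the lineage markers SOX10 (mean of 12050.46 normalized counts), MITF (1260.2), S100B (683.3) and DCT (1276.9). By contrast, MLANA was at 0 in every library, TYR was at 0 to 2.14, and PMEL was at 20.9 to 36.8. TYRP1 was at 1.07 to 6.30 except in R4VPL3-1 replicate 1, where it was at 33.6. SOX10 was lower in both compound groups, at 9133 to 11216 in VHL-r and 7900 to 8752 in R4VPL3-1 against 17007 to 17935 in DMSO. MITF was likewise at 983 to 1136 and 893 to 1235 against 1497 to 1994. Among markers of other cells, PTPRC, PECAM1, EPCAM and KRT5 had means of 4.62 to 17.4, KRT14 had 294.7 and COL1A1 had 1065.2. The part of these differences in the polyamine genes was not tested.

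Of the 10 polyamine genes, 8 passed the filter of a mean of at least 10 normalized counts, that is, reads divided by a size factor per library. OAZ1, the most widely expressed antizyme gene, was listed at 0 in all 9 libraries. PAOX, the peroxisomal oxidase of acetylated polyamines, was at 0 in 8 libraries and had 1 read in R4VPL3-1 replicate 3. In the annotation, 6.40% of the OAZ1 exon bases and 61.02% of those of PAOX also lie in exons of a read-through gene on the same strand. Reads lying on 2 genes may go uncounted, and whether this accounts for the zeros was not tested. Of the other genes, SMS shares 5.71% of its 100-base windows with another gene, which itself was at 44.8 to 77.2 normalized counts. For SAT1 3.63% and for AZIN1 2.59% of the exon bases also lie in exons of another same-strand gene. Each of those 2 other genes was listed at 0 in all 9 libraries.

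Between genes, levels can be compared only per length. Over the 9 libraries and all annotated exons, SMS was highest with 5037 normalized counts per kb (range 4767 to 5364), followed by SRM with 4094 (3709 to 4482), AZIN1 with 1434 (1296 to 1521) and AMD1 with 699.8 (611.2 to 772.7). ODC1 followed with 419.3 (380.9 to 448.1), OAZ2 with 252.4 (230.9 to 266.7), SAT1 with 228.1 (146.0 to 329.2) and SMOX with 204.3 (176.0 to 248.2). The ranges of neighbours did not overlap down to OAZ2, whereas OAZ2 and SAT1, and SAT1 and SMOX, overlapped. With the canonical transcript as the length, OAZ2 (1001) stood above ODC1 (560.0), and the ranges of SMS (5963 to 6709) and SRM (5576 to 6738) overlapped, as did those of AZIN1 (1893 to 2222) and AMD1 (1820 to 2301). SMS and SRM were the highest of the 8 measured genes on either length. Over all exons, SAT1 was at 187.5 per kb (SD 36) and SMOX at 188.3 (SD 11.9) in DMSO. The values were 205.1 (SD 8.64) and 221.7 (SD 24.2) in VHL-r, and 291.8 (SD 38.2) and 202.9 (SD 2.17) in R4VPL3-1. Which of these genes was lower was thus not settled in DMSO or VHL-r. With the canonical transcript as the length, SMOX (239.6 to 337.9) lay below SAT1 (345.4 to 778.9) over all 9 libraries.

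**Figure D1:**
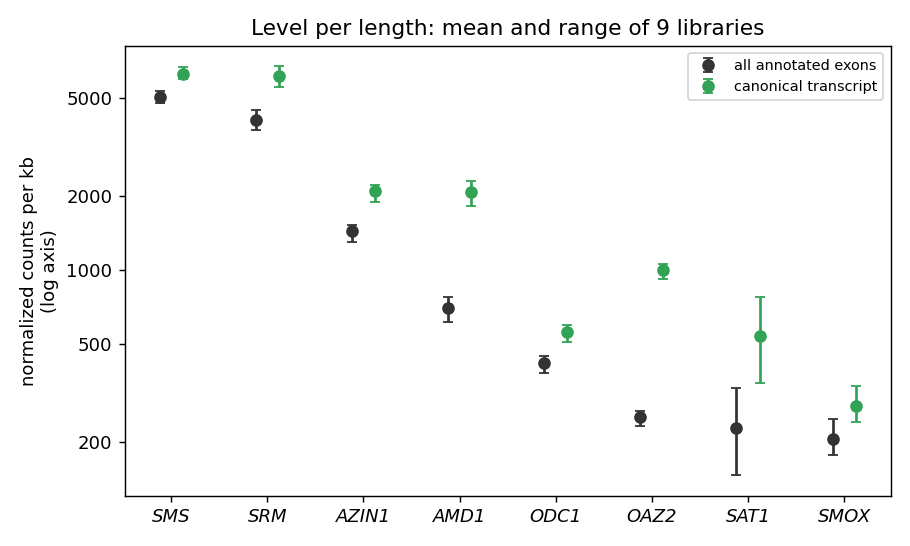
Level of the 8 measured polyamine genes in normalized counts per kb (log axis), with points for the mean and bars for the range of 9 libraries, using all annotated exons or the canonical transcript as the length. SMS and SRM were highest, at 5037 and 4094 over all exons, and SAT1 (228.1) and SMOX (204.3) were at the low end with overlapping ranges.

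Across treatments, the genes were read from 1 fit over 9 libraries (limma on log2 of the normalized count + 1), and the comparisons share their groups, so that their values are given side by side. VHL-r against DMSO called 2 of the 8 tested polyamine genes, both higher (OAZ2 and SMOX), beside 19.8% of all 15230 tested genes called, 10.3% higher and 9.51% lower. R4VPL3-1 against DMSO called 4 of 8, with SAT1 and OAZ2 higher and AMD1 and SMS lower, beside 24.9% of all tested genes, 13.1% higher and 11.8% lower. R4VPL3-1 against VHL-r called 2 of 8, SAT1 higher and AMD1 lower, beside 1.87% of all tested genes, 1.14% higher and 0.729% lower. The median log2 fold change of the 8 genes was 0.061, 0.012 and -0.015 in these comparisons, and that of all tested genes was -0.005, -0.006 and -0.006. The called genes in the comparisons of R4VPL3-1 lay in both directions.

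**Figure D2:**
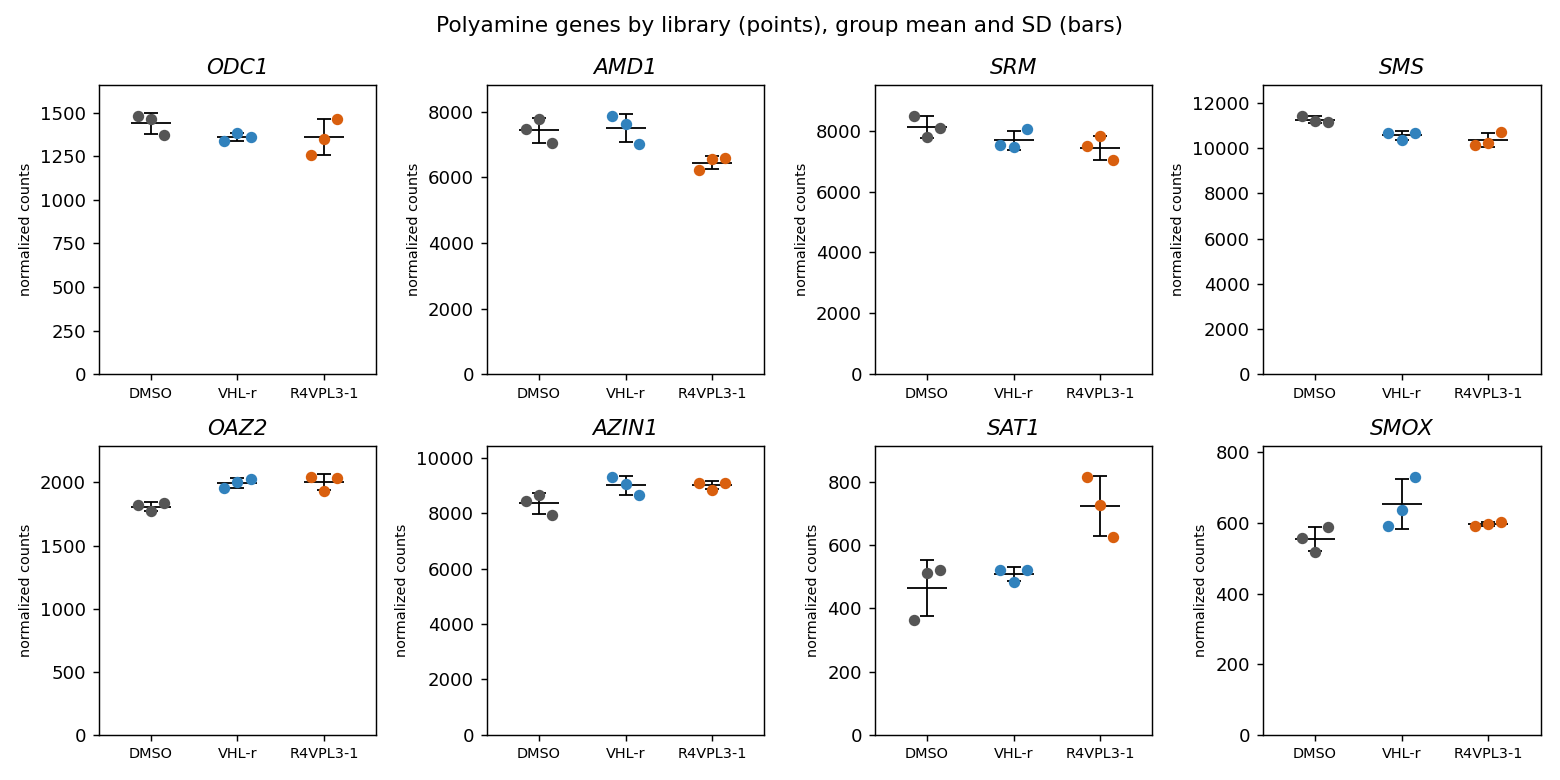
Normalized counts (linear axes from 0) of the 8 measured polyamine genes, with 1 point per library and lines for the group mean and SD of 3 libraries. SAT1 in R4VPL3-1 (627 to 817) lay above every other library, and AMD1 in R4VPL3-1 (6229.9 to 6585) lay below every other library.

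SAT1 encodes spermidine/spermine N1-acetyltransferase, the enzyme that commits polyamines to export or oxidation (ENSG00000130066, GRCh38 X:23783173-23786210, plus strand). In normalized counts it was at 362, 512 and 522 in DMSO, at 520.4, 484 and 522 in VHL-r, and at 817, 728 and 627 in R4VPL3-1. Every R4VPL3-1 library was above every library of the other groups, and the DMSO and VHL-r libraries overlapped. The group means were 465.4 ± 89.4 (SD, n = 3), 509.0 ± 21.4 and 724.2 ± 94.9. SAT1 was higher in R4VPL3-1 than in DMSO by 0.65 on the log2 scale (SE 0.11, 95% interval 0.41 to 0.89, adjusted p = 0.0002), a 1.57-fold difference. Against VHL-r, at the same dose and time, it was higher by 0.50 (0.26 to 0.74, adjusted p = 0.0195), or 1.41-fold. VHL-r itself differed from DMSO by 0.15 (-0.090 to 0.38, adjusted p = 0.427). The low DMSO library was replicate 1, and without it the difference of R4VPL3-1 from DMSO was 0.48 (adjusted p = 0.00087) and that of VHL-r from DMSO was -0.023 (adjusted p = 0.914). The call against VHL-r was lost without VHL-r replicate 2 (adjusted p = 0.13), R4VPL3-1 replicate 1 (adjusted p = 0.151) or R4VPL3-1 replicate 2 (adjusted p = 0.084), with differences of 0.41 to 0.49, and with limma's robust option (adjusted p = 0.082). In bulk RNA, more cells with the transcript and more transcript per cell cannot be told apart.

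AMD1 encodes S-adenosylmethionine decarboxylase, which supplies the aminopropyl donor for both synthases (ENSG00000123505, 6:110874770-110898879, plus strand). It was at 7479.7, 7789 and 7047 normalized counts in DMSO, 7877, 7620.0 and 7024 in VHL-r, and 6229.9, 6549 and 6585 in R4VPL3-1. The R4VPL3-1 libraries lay below all others, and DMSO and VHL-r overlapped. AMD1 fell by 0.20 on the log2 scale against DMSO (SE 0.049, 95% interval -0.31 to -0.10, adjusted p = 0.00383), to 0.868 of the DMSO level. Against VHL-r it fell by 0.22 (-0.32 to -0.11, adjusted p = 0.0193). The difference of VHL-r from DMSO was 0.013 (-0.090 to 0.12, adjusted p = 0.899). The call against VHL-r was lost without VHL-r replicate 1 (adjusted p = 0.102), VHL-r replicate 2 (0.135), R4VPL3-1 replicate 1 (0.134) or R4VPL3-1 replicate 2 (0.0519), with AMD1 lower by 0.18 to 0.26 over all the alternatives.

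The spermine synthase gene SMS (ENSG00000102172, X:21940709-21994837, plus strand) was at 11425, 11179 and 11140.5 normalized counts in DMSO, at 10680.6, 10341 and 10667 in VHL-r and at 10154, 10248 and 10719.7 in R4VPL3-1. Every DMSO library was above every library of the compounds, which overlapped with each other. SMS fell by 0.12 on the log2 scale in R4VPL3-1 against DMSO (SE 0.040, -0.20 to -0.035, adjusted p = 0.0344). Against DMSO, VHL-r gave -0.091 (-0.17 to -0.008, adjusted p = 0.121), and R4VPL3-1 differed from VHL-r by -0.026 (-0.11 to 0.056, adjusted p = 0.923). The R4VPL3-1 call held in 10 of 18 alternative settings. It was lost with edgeR (adjusted p = 0.0521), with no filter (0.0792) and without VHL-r replicate 2 (0.054). Leaving out DMSO replicate 1 (0.107), DMSO replicate 2 (0.0837) or DMSO replicate 3 (0.0566) also lost it. So did leaving out R4VPL3-1 replicate 1 (0.137, the highest) or R4VPL3-1 replicate 2 (0.106). The spermidine synthase gene SRM (ENSG00000116649, 1:11054584-11060020, minus strand) was at 8489, 7789 and 8096 in DMSO, 7543, 7476 and 8048 in VHL-r, and 7504, 7813 and 7025 in R4VPL3-1. All groups overlapped, and its log2 differences from DMSO were -0.079 (adjusted p = 0.29) for VHL-r and -0.13 (adjusted p = 0.0616) for R4VPL3-1, which passed in 1 of 18 alternative settings (adjusted p = 0.0358 without R4VPL3-1 replicate 2).

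ODC1, the ornithine decarboxylase gene and the first step of synthesis (ENSG00000115758, 2:10439968-10448327, minus strand), did not pass the test in any comparison. It was at 1482, 1467 and 1372 normalized counts in DMSO, 1337, 1387 and 1358 in VHL-r, and 1259.6, 1351 and 1466 in R4VPL3-1. The DMSO libraries overlapped with those of both compounds. Its log2 difference from DMSO was -0.081 (95% interval -0.21 to 0.043, adjusted p = 0.397) for VHL-r and -0.086 (-0.21 to 0.039, adjusted p = 0.332) for R4VPL3-1, and the difference between the compounds was -0.004 (-0.13 to 0.12).

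Of the antizyme system, OAZ2 (ENSG00000180304, 15:64687573-64703281, minus strand), the antizyme that also binds ornithine decarboxylase, was at 1818, 1771 and 1835 normalized counts in DMSO, at 1954, 2006 and 2028 in VHL-r and at 2046, 1934 and 2032 in R4VPL3-1. All 6 compound libraries were above all DMSO libraries, and the compound groups overlapped. OAZ2 was higher than DMSO by 0.14 on the log2 scale in VHL-r (SE 0.048, 0.042 to 0.24, adjusted p = 0.0422) and by 0.15 in R4VPL3-1 (0.047 to 0.25, adjusted p = 0.0288), a 1.11-fold difference in the latter. Between the compounds it differed by 0.005 (-0.10 to 0.11, adjusted p = 0.992). The call held in 12 of 18 alternative settings in VHL-r and in 13 of 18 in R4VPL3-1. Both were lost with no filter (adjusted p = 0.0797 and 0.0549), without DMSO replicate 1 (0.0858 and 0.0611) and without DMSO replicate 2 (0.153 and 0.115). The VHL-r call was also lost without DMSO replicate 3 (0.0646), VHL-r replicate 2 (0.126) or VHL-r replicate 3 (0.0992). That of R4VPL3-1 was also lost without R4VPL3-1 replicate 1 (0.112) or R4VPL3-1 replicate 3 (0.0641). AZIN1, the antizyme inhibitor that frees ornithine decarboxylase (ENSG00000155096), was at 8451, 8674 and 7944 in DMSO, 9324, 9056 and 8656 in VHL-r, and 9091, 8845 and 9090.3 in R4VPL3-1. The R4VPL3-1 libraries were above the DMSO libraries, whereas VHL-r and DMSO overlapped, and the log2 difference of 0.11 (95% interval 0.018 to 0.20) missed the threshold in both (adjusted p = 0.0893 and 0.0758). AZIN1 passed in 1 of 18 alternative settings in each, without VHL-r replicate 3 for VHL-r (adjusted p = 0.0453) and with TMM rescaling for R4VPL3-1 (adjusted p = 0.0468).

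SMOX, the oxidase that converts spermine to spermidine (ENSG00000088826, 20:4120980-4187747, plus strand), was at 558, 518 and 588 normalized counts in DMSO, 591, 637 and 731 in VHL-r, and 591, 598 and 604 in R4VPL3-1. Each compound group lay above the DMSO libraries, in the closest case by a few counts, and the VHL-r libraries had the widest spread. SMOX was higher in VHL-r than in DMSO by 0.23 on the log2 scale (SE 0.080, 0.065 to 0.40, adjusted p = 0.0453), or 1.17-fold. R4VPL3-1 gave 0.11 against DMSO (-0.057 to 0.28, adjusted p = 0.359) and -0.12 against VHL-r (-0.29 to 0.044, adjusted p = 0.713), so that a difference between the compounds was not shown. The VHL-r call held in 11 of 18 alternative settings. It was lost with no filter (adjusted p = 0.064), with only the 6 libraries compared (0.0538) and without DMSO replicate 1 (0.0884), DMSO replicate 2 (0.199), VHL-r replicate 2 (0.0883), VHL-r replicate 3 (0.225) or R4VPL3-1 replicate 2 (0.0585).

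**Figure D3:**
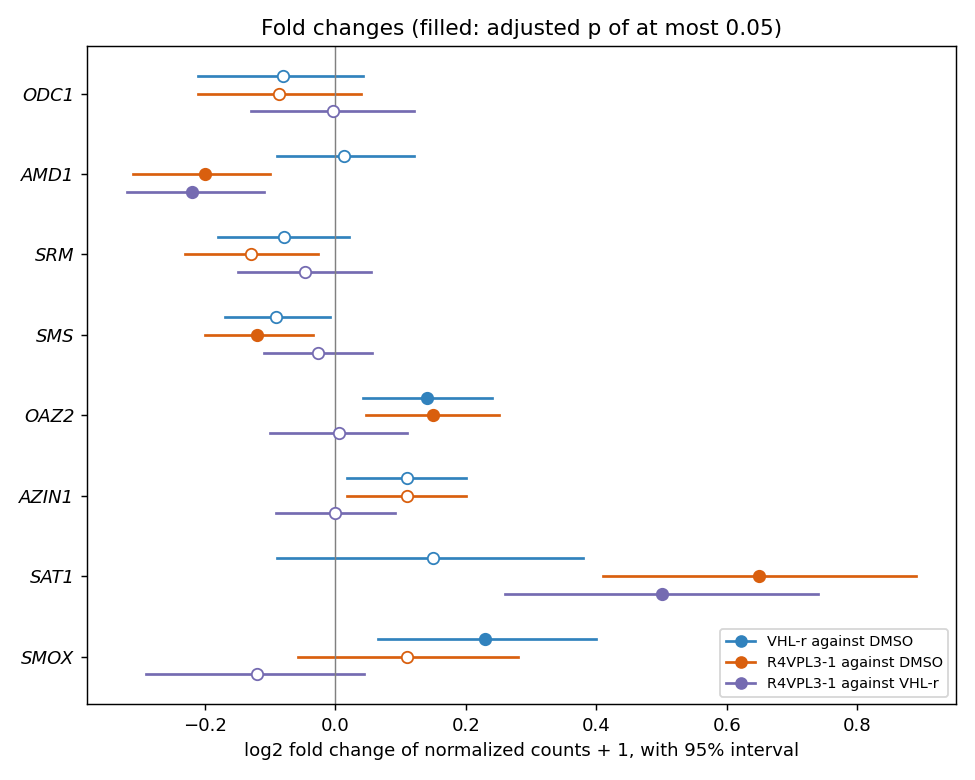
Log2 fold change (normalized count + 1) of the 8 measured polyamine genes in the 3 comparisons, with 95% intervals as lines and filled points for an adjusted p of at most 0.05. SAT1 (0.65 and 0.50) and AMD1 (-0.20 and -0.22) stood apart in both comparisons of R4VPL3-1, and OAZ2 was at 0.14 and 0.15 in both comparisons with DMSO.

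A list of 31 further genes of the pathway covered paralogs, ornithine supply, S-adenosylmethionine supply, methylthioadenosine salvage, hypusination of EIF5A (which uses spermidine) and transport, and 23 of them were tested. In VHL-r against DMSO 4 of 23 were called, all higher, beside 19.8% of all tested genes called and 10.3% called higher. In R4VPL3-1 against DMSO 7 of 23 were called, 6 higher and 1 lower, beside 24.9% of all tested genes, 13.1% higher and 11.8% lower. In R4VPL3-1 against VHL-r limma called 0 of 23, edgeR and DESeq2 also called 0, and 0 had an unadjusted p under 0.05, beside 1.87% of all tested genes called. The median log2 fold change was 0.076, 0.047 and -0.029.

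MAT2A, which makes S-adenosylmethionine, had the smallest p of the list. It was at 13241, 13400.0 and 13660.4 normalized counts in DMSO, 16577, 16247 and 16653 in VHL-r, and 17814, 17342 and 16889 in R4VPL3-1. The groups did not overlap, and R4VPL3-1 also lay above VHL-r. MAT2A was higher than DMSO by 0.30 on the log2 scale (SE 0.039, adjusted p = 9.06e-06) in VHL-r and by 0.37 (adjusted p = 3.28e-07) in R4VPL3-1, and the compounds differed by 0.073 (-0.008 to 0.15, adjusted p = 0.584).

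EIF5A2, a paralog of the hypusinated factor EIF5A, was at 384, 334 and 405 in DMSO, 465, 528 and 472 in VHL-r and 425, 442 and 475 in R4VPL3-1, and was higher than DMSO by 0.39 (adjusted p = 0.00304) and 0.26 (adjusted p = 0.0346). In ornithine supply, OAT, the ornithine aminotransferase, was higher by 0.16 (adjusted p = 0.019) in VHL-r and 0.15 (adjusted p = 0.0255) in R4VPL3-1, and the cationic amino acid transporter SLC7A2 by 0.16 (adjusted p = 0.0467) and 0.17 (adjusted p = 0.0373). AZIN2, the second antizyme inhibitor, was higher by 0.42 (adjusted p = 0.0279) in R4VPL3-1 and at 0.37 (adjusted p = 0.0584) in VHL-r. In the transport group, SLC3A2, the heavy chain of amino acid exchangers, was higher by 0.22 (adjusted p = 0.00357) in R4VPL3-1, and the polyamine transporter gene ATP13A3 fell by 0.16 (adjusted p = 0.0215). Neither passed in VHL-r (0.11 and -0.077, adjusted p = 0.153 and 0.321), but the difference between the compounds was not called (adjusted p = 0.517 and 0.664). Over 18 alternative settings, MAT2A kept its call in all of them in both compounds, EIF5A2 in 18 in VHL-r and 14 in R4VPL3-1, and OAT in 14 in each. SLC7A2 kept it in 7 in VHL-r and 10 in R4VPL3-1, with the highest adjusted p, 0.176 and 0.148, without DMSO replicate 1. In R4VPL3-1, SLC3A2 kept its call in 18, ATP13A3 in 14 and AZIN2 in 13, the last with an adjusted p of 0.154 without DMSO replicate 1. The 4 tested genes of methylthioadenosine salvage were not called in any comparison.

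The genes not tested included SATL1, ARG1, MTAP, DHPS, ATP13A4, SLC22A2 and SLC22A3. ARG1 and MTAP were listed at 0 in every library, and DHPS and SLC22A2 had 1 read in 1 library. In the annotation, 38.77% of the DHPS exon bases and 7.87% of those of MTAP also lie in exons of other genes on the same strand. For ARG1 and SLC22A2 this share was 0.00%. As for OAZ1 and PAOX, whether uncounted reads account for the low values of DHPS and MTAP was not tested.

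**Figure D4:**
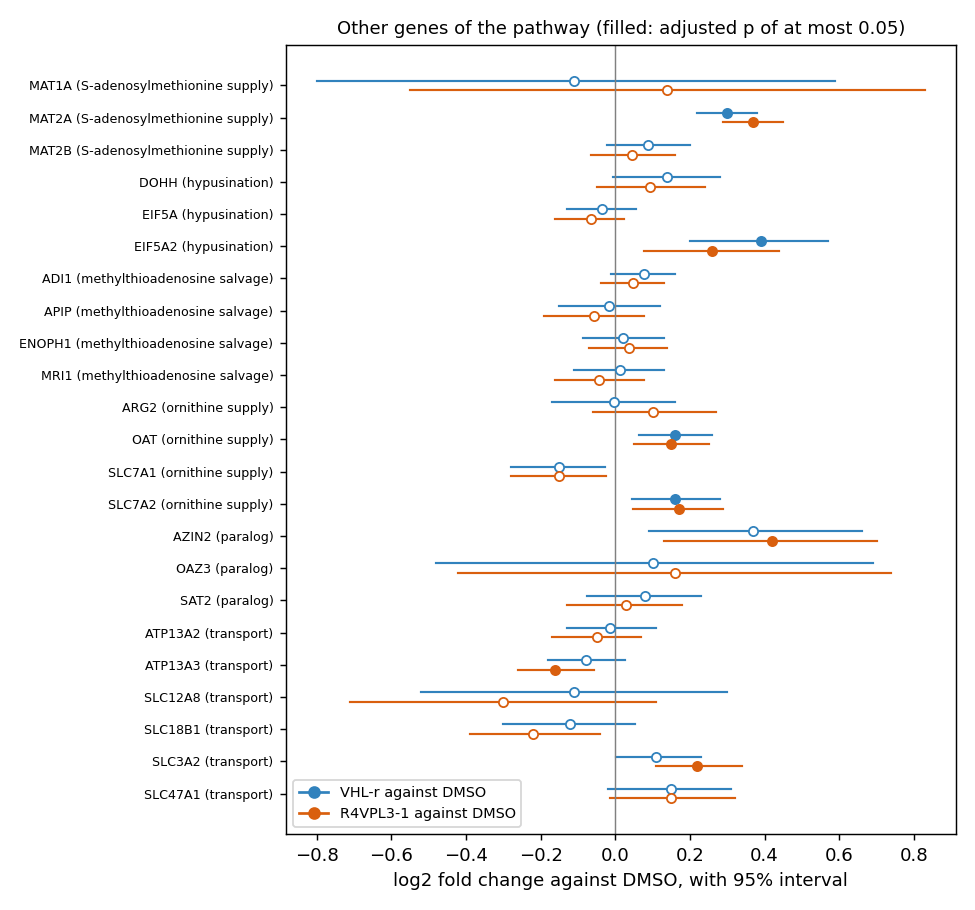
Log2 fold change against DMSO of the 23 tested further genes of the pathway, with 95% intervals and filled points for an adjusted p of at most 0.05. MAT2A (0.30 and 0.37), EIF5A2 (0.39 and 0.26), OAT and SLC7A2 were called in both compounds.

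The genes whose log2 levels over the 9 libraries were most like those of a polyamine gene were listed for SAT1, ODC1 and AMD1, as a description, since the libraries share treatments and the genes were picked as the closest of all tested genes outside the polyamine and pathway lists. For SAT1 they were ENSG00000289405 (Pearson r = 0.971), PCGF3-AS1 (0.963) and ZNF181 (0.959), whose means were 39.0, 224.5 and 142.7 in DMSO and 74.7, 365.1 and 203.3 in R4VPL3-1. For AMD1 they were TMX4 (0.957), TMEM165 (0.938) and SNRPF (0.930), and for ODC1 LAPTM4A (0.965), RAN (0.930) and ITGB1 (0.929).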

How the data were processed

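RNA of A375R cells was made into poly(A)-selected, strand-specific libraries and sequenced as single reads. Per the methods, STAR (GRCh38) and htseq-count in reverse mode gave the authors reads per gene, which they normalized with DESeq2 (1.36.0 per the processing notes). The deposited values are this normalized signal, reads divided by a size factor per library, and 100.000% of values above 0 gave whole reads (tolerance 0.1 read). No column was left unused.

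The main test was limma 3.58.1 (R 4.3.3, trend option) on log2(value + 1) on 15230 genes that averaged 10 or more, with 9 libraries and 3 groups in a single-factor fit, and calls at 0.05 after Benjamini-Hochberg adjustment. A fold change on this scale understates the change of low genes. Alternatives were DESeq2 1.42.0 and edgeR 4.0.16 run with recovered reads, other pseudocounts, filters, scalings and left-out libraries. The named genes are the 10 polyamine genes, the 31 further genes of the pathway as counts with values for those called or not tested (1 is not reported here), and the 3 genes most like each of SAT1, ODC1 and AMD1. The genes and lists were chosen with earlier results of these data known. DMSO was assigned to the libraries titled "WT" as the remaining group. Exon lengths and overlaps came from GENCODE 44, whose coordinates were identical for 99.73% of matched genes, and promoters from RefSeq.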

Additional observations from a re-analysis of the deposited data

How the results depend on the processing

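Over the alternatives, SAT1 and AMD1 kept their calls in R4VPL3-1 against DMSO in all 18, and MAT2A in both comparisons with DMSO. Polyamine genes called in VHL-r against DMSO went from 2 to 0 with no filter and 1 with only the 6 libraries compared, and to 0 to 2 with single libraries left out. All genes called went from 3016 to 2724, 3092 and 2286 to 3201 in these settings. In R4VPL3-1 against DMSO the polyamine count went from 4 to 2 with no filter, 3 with edgeR, 5 with TMM and 2 to 4 with libraries left out. All genes called there went from 3792 to 3520, 3857, 3825 and 2866 to 3895. In R4VPL3-1 against VHL-r the polyamine count went from 2 to 1 with limma's robust option and to 0 to 2 with libraries left out. The pathway counts with libraries left out were 2 to 4 (VHL-r) and 2 to 7 (R4VPL3-1) against DMSO, and all genes called in R4VPL3-1 against VHL-r were 182 to 358, the lowest without R4VPL3-1 replicate 1. The difference of ODC1 between the compounds changed sign with TMM (0.001) and edgeR (0.003). With libraries left out, values near 0 also changed sign: SAT1 (-0.023 to 0.24) and AMD1 (-0.026 to 0.060) in VHL-r against DMSO, and ODC1 (-0.060 to 0.049), OAZ2 (-0.010 to 0.031) and AZIN1 (-0.029 to 0.025) between the compounds. The cause was not tested.

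By correlation, the replicate numbers carried a weak link between libraries, and a term for them raised the counts of all genes called. Deviations of same-numbered libraries correlated by -0.00559 to 0.121, and 2 of 9 pairs were over 0.1. Those of differently numbered libraries correlated by -0.148 to 0.0982, and 0 of 18 pairs were over 0.1. In both other groups, 4 of 9 libraries correlated best with their own number. The main fit had no term for the replicate number. With the replicate block, 2, 4 and 2 polyamine genes were called in the 3 comparisons, as without it, whereas the pathway counts went from 4 to 6 and from 7 to 9 against DMSO (0 between the compounds in both fits), and all genes from 3016 to 3451, 3792 to 4241 and 285 to 389. Canonical transcript lengths, the correlations' ranges and the level order were alternatives chosen after seeing the data; the correlation of ITGB1 with ODC1 was 0.871 without R4VPL3-1 replicate 1. With 3 libraries per group, small differences of low genes were not detectable.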
